A study of Mus musculus with 18 samples.

Results

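The CD4-CD8- fraction of conventional type 2 dendritic cells (cDC2) from mouse spleen was compared between mice lacking ADAM10 and wild type mice. The members were chosen by label: the 3 KO and the 3 WT libraries of the population titled CD4- DC, 6 of 18 libraries in all. The series holds 6 groups of 3 libraries, with KO and WT of the CD4-CD8- cDC2, of the CD4+ cDC2 and of the CD8+ cDC1. All mice were of the C57BL/6 strain, and the KO groups carried the ADAM10 knockout. The labels name no treatment, age or Cre driver, and do not describe how the gene was removed. Splenocytes were released with collagenase IV and DNase, enriched on CD11c-binding magnetic beads and sorted as living CD11c+ MHC class II+ cells, and poly(A) RNA was sequenced. The labels do not say whether the 3 libraries of a group came from separate animals, so p-values reflect only how far these libraries scatter, and that scatter may be technical.

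ADAM10 is a membrane-bound metalloprotease that cuts the outer part of many surface proteins close to the membrane. One of these is Notch: after a ligand binds, ADAM10 makes the first cut, gamma-secretase makes the second, and the freed intracellular domain joins the DNA-binding protein RBPJ to switch on target genes such as Hes1 and Dtx1. In mouse spleen, Notch2 signalling is known to be needed for the ESAM-high cDC2, which line the marginal zone bridging channels and include most CD4+ cDC2, whereas ESAM-low cDC2 carry more monocyte-associated genes. CD4-CD8- cDC2 hold cells of both kinds. Levels below are CPM (counts scaled to library size with TMM normalisation), differences are log2 fold changes (KO minus WT) with their standard error (SE), and a gene was said to rise or fall when edgeR's quasi-likelihood test gave a Benjamini-Hochberg adjusted p under 0.05 across all genes tested.

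Adam10 itself (GRCm38 chr9:70678997-70780229, plus strand) was lower in every KO library. Its level was 90.9, 88.3 and 138.4 CPM in the WT libraries and 47.5, 41.7 and 44.6 CPM in the KO libraries. The groups did not overlap, and the fall was -1.25 ± 0.22 on the log2 scale (2.37-fold, edgeR adjusted p = 0.000547). Which exons were removed is not given in the sources used here, and transcript from the remaining exons would still be counted. The sorted population matched its label for the coreceptors: Cd4 averaged 6.40 CPM here against 443 CPM in WT CD4+ cDC2, and Cd8a averaged 5.90 CPM against 1060 CPM in WT CD8+ cDC1.

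The WT libraries of this gate also held transcripts of NK and T cells, and these were kept apart from the cDC genes. The summed level of 29 NK cell markers was 2460, 1398 and 1404 CPM in the WT libraries and 770, 579 and 594 CPM in the KO libraries. For the 30 T cell markers in the table the sums were 870, 468 and 662 CPM in WT against 143.5, 63.1 and 142.9 CPM in KO. No KO library reached a WT library for either list, and WT library 1 was the highest for both. In WT CD4+ cDC2 the T cell sum was 121 to 136 CPM and the NK cell sum was 415 to 474 CPM. Of the 30 T cell markers, only Cd40lg was at 0 in all 6 libraries. For B cell markers the sums overlapped (399 to 455 CPM in WT, 358 to 438 CPM in KO), although 6 of 15 tested fell and 1 rose, with a median of -0.75. The red pulp macrophage markers summed to 618 to 804 CPM in WT against 964 to 1114 CPM in KO, with 6 of 18 rising and 2 falling. Much of the higher sum came from Axl (mean 47.6 CPM in WT, 206 CPM in KO) and Mrc1 (10.1 and 141 CPM). Both also rose in CD4+ cDC2, by 2.91 and 5.18 on the log2 scale. Monocyte markers summed to 3125 to 3446 CPM in WT against 3446 to 4360 CPM in KO, with 7 of 17 rising and 5 falling. That sum includes Ccr2 (mean 328 CPM in WT, 1282 CPM in KO), which is also counted among the ESAM-low genes. The neutrophil markers Camp and Lcn2 were at 0. A gene was treated as a gate transcript if it was on the NK, T or innate lymphoid list, or if its WT mean here was at least 4 times the WT mean of both other populations. The part of these other cells in any single result was not tested. Library totals ran from 12358884 to 17106179 estimated counts, and transcripts of ribosomal proteins took 8.05% to 9.16% of counts in WT and 10.1% to 10.4% in KO.

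**Figure D1:**
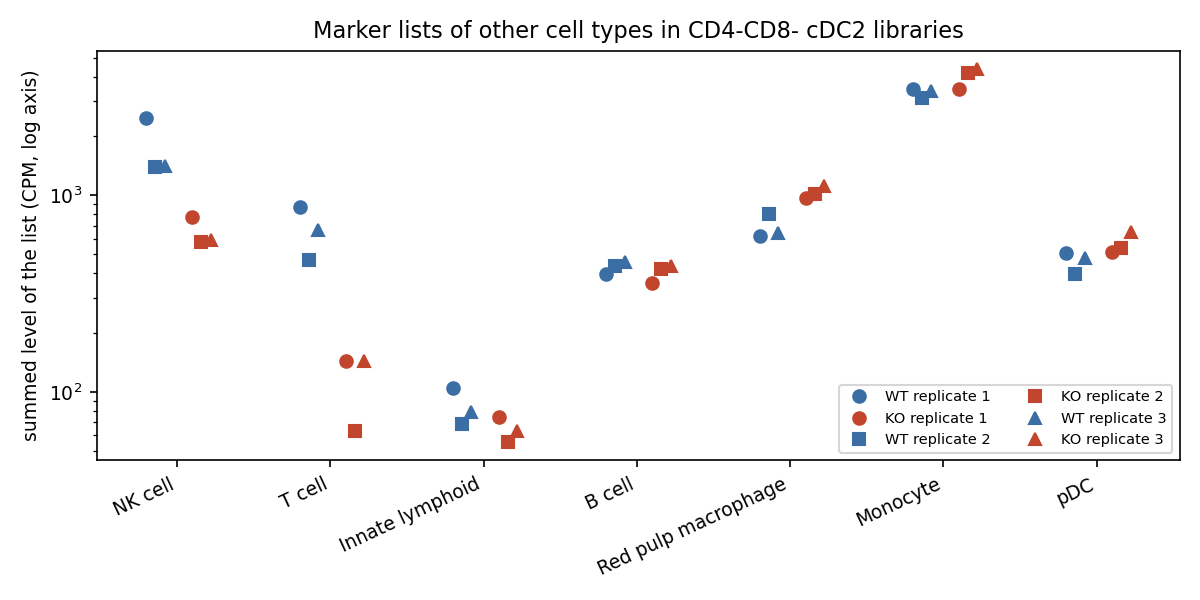
Summed level (CPM, log axis) of marker lists of 7 other cell types in each of the 3 WT (blue) and 3 KO (red) CD4-CD8- cDC2 libraries, with symbols for the replicate numbers. NK sums lie between 1398 and 2460 CPM in WT and between 579 and 770 CPM in KO, T cell sums between 468 and 870 CPM in WT and between 63.1 and 143.5 CPM in KO, while B cell sums overlap.

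Of 13369 genes tested, 3473 differed between KO and WT (26.0%). 1955 rose (14.6%) and 1518 fell (11.4%), of which 427 rose and 581 fell at least 2-fold. KO libraries lay wholly above WT libraries for 22.8% of genes and wholly below for 19.4%. Gate transcripts made up 183 of the genes that fell, out of 297 gate transcripts tested, and 180 of these fell at least 2-fold. Of the 297, 232 were gate transcripts by their WT level alone, 133 of which fell, and since a high WT level here was the criterion, their share of falls is partly set by it. Among the other 13072 genes, 1942 rose and 1335 fell, the latter with 401 at least 2-fold. The split between rises and falls depended on the scale. On log2(TPM + 1), where the median of all genes was shifted by -0.21, 560 of 12076 genes rose (4.64%) and 2752 fell (22.8%). Of the 1862 count-based rises also tested on TPM, 1832 lay above that shifted median, and of 1345 falls, 1317 lay below it. Counts on both scales are therefore given for the gene groups, to be read against these shares of all genes. In bulk RNA, a smaller share of cells expressing a gene and less RNA per cell cannot be told apart.

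**Figure D2:**
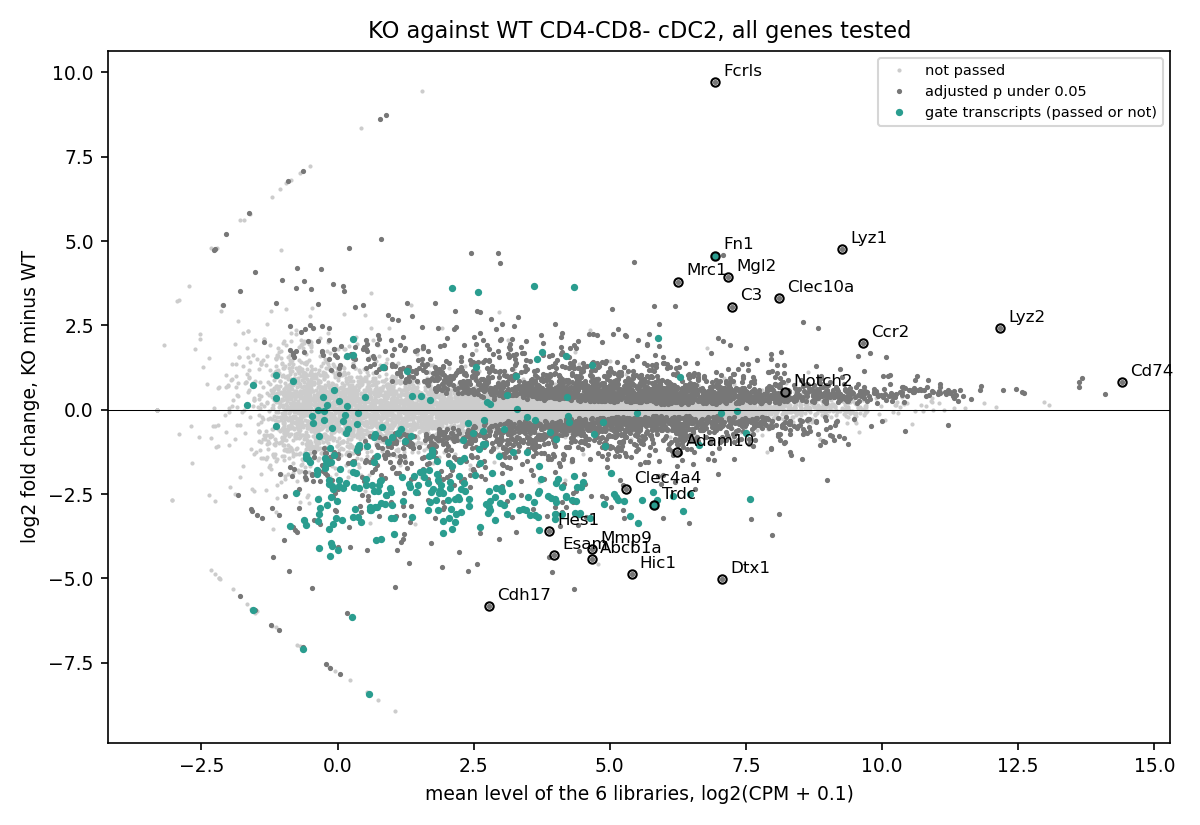
Log2 fold change (KO minus WT) of the 13369 genes tested in CD4-CD8- cDC2 against their mean level, log2(CPM + 0.1), over the 6 libraries. Dark grey points passed an adjusted p of 0.05, light grey points did not, and green points are the 297 gate transcripts. Fcrls (9.71) and Lyz1 (4.76) stand far above 0 and Dtx1 (-5.01) and Hic1 (-4.88) far below, and most green points lie below 0.

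Genes that Notch switches on were reduced in the KO cells. Of 13 Notch target genes tested, 8 fell and 1 rose, the latter Myc, named after its value was seen (background 11.4% and 14.6%), with a median of -1.11 against 0.02 for all genes, and 6 fell and 0 rose among the 10 tested on TPM. Dtx1, a ubiquitin ligase that feeds back on Notch, fell furthest. It was at 249, 259 and 265 CPM in WT and at 5.93, 3.76 and 14.5 CPM in KO. That is a 32.3-fold loss (-5.01 ± 0.55, edgeR adjusted p = 5.72e-06), and -5.71 without KO library 3. Hes1, a repressor at the head of the classical Notch response, had 27.6, 23.3 and 30.5 CPM in WT against 1.31, 2.30 and 3.22 CPM in KO (-3.60 ± 0.40, edgeR adjusted p = 7e-06). Ccnd1, which encodes the G1 cyclin D1, went from 782, 1033 and 852 CPM to 448, 451 and 428 CPM (-1.01 ± 0.11). No KO library reached a WT library for any of these genes. Cd300e fell by 1.11 on the log2 scale. Gata3 is a gate transcript, and its fall (-2.36 ± 0.53) stands beside the lower NK and T cell sums of the KO libraries.

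The promoter of Dtx1 is shown because no other Notch target fell as far. The window runs from 250 bases before to 50 bases after the gene's start on the minus strand of chr5:120711620-120711919 (RefSeq, GRCm38.p6), and was searched on both strands for the core of the RBPJ motif, TGGGAA, which was not among its letters.
Dtx1: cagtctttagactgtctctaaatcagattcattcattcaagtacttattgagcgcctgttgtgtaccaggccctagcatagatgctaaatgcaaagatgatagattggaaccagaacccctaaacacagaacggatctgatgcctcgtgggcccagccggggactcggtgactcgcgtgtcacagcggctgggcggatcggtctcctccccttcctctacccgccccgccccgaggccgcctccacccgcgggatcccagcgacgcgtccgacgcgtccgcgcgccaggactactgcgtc
The same letters were in 0 of the 5 windows found among the 8 target genes that fell and in 25.5% of 27025 promoter windows of all genes. The search says nothing of RBPJ sites outside these windows.

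The Notch receptors and ligands moved in both directions. Notch2, the receptor known to act in splenic cDC2, had 215, 265 and 251 CPM in WT against 320, 352 and 380 CPM in KO (0.52 ± 0.11, edgeR adjusted p = 0.002). All KO libraries were above all WT libraries, but the call was lost on TPM (0.22). Notch1 averaged 20.1 ± 3.81 CPM in WT against 15.8 ± 2.75 CPM in KO (SD, n = 3), a difference that did not pass (edgeR adjusted p = 0.0964) except without KO library 3 (-0.50). Notch4 averaged 6.89 ± 1.04 and 9.17 ± 2.51 CPM and did not pass. Of the 8 receptors and ligands tested, 1 rose and 3 fell (0 and 1 of 5 on TPM). The ligand Jag1 fell from 8.10, 10.8 and 10.9 CPM to 5.28, 3.53 and 4.45 CPM (-1.16 ± 0.21). Dll1, a ligand and here a gate transcript, fell from a mean of 3.40 to 0.351 CPM (-3.21 ± 0.53, and -3.84 without KO library 1). Notch3 was near 1 CPM in WT, and its fall (-1.94 ± 0.57) was lost without WT library 2 (-1.73), KO library 1 (-1.39) or KO library 3 (-1.93).

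Among 23 co-factors and modifiers of the pathway, 4 rose and 4 fell, and on TPM 1 of 20 rose and 3 fell. Over all genes the shares were 14.6% and 11.4% on counts and 4.64% and 22.8% on TPM. Rbpj, the DNA-binding partner of Notch, rose from 194, 184 and 192 CPM to 289, 399 and 409 CPM (0.94 ± 0.13, edgeR adjusted p = 6.21e-05). Itch, a ubiquitin ligase that marks Notch for degradation, fell from 222, 205 and 210 CPM to 135, 145 and 133 CPM (-0.63 ± 0.09). Dtx2, a relative of Dtx1, moved the other way: it rose from 35.1, 32.2 and 35.9 CPM to 66.7, 70.3 and 68.2 CPM (0.99 ± 0.07), a call that TPM did not give (0.45). Of 7 gamma-secretase subunits 3 rose, none of them on TPM, and without WT library 1 or KO library 1 only 1 did. Aph1a, for example, rose by 0.52 ± 0.08 on counts and was at -0.08 on TPM.

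Several partners of the ADAM proteases, and the metalloprotease inhibitor gene Timp2, were higher. Timp1 and Timp3 were not tested. Of 7 TspanC8 tetraspanins, iRhoms and TIMPs tested, 5 rose and 0 fell (4 rose on TPM). Tspan5 and Tspan17, tetraspanins that carry ADAM10 to the cell surface, rose by 1.04 ± 0.12 and 1.49 ± 0.23. Tspan17 was at 6.71, 5.12 and 5.24 CPM in WT and at 14.1, 16.7 and 17.2 CPM in KO. Timp2, a metalloprotease inhibitor, went from 10.8, 7.90 and 8.22 CPM to 33.4, 43.5 and 51.1 CPM (2.24 ± 0.25, edgeR adjusted p = 6.6e-06). Of the 10 ADAM proteases tested, 3 rose and 3 fell (1 and 4 of 9 on TPM). Adam15 rose from 20.4, 22.7 and 21.4 CPM to 68.2, 88.7 and 86.8 CPM (3.78-fold, 1.92 ± 0.11), while Adam23 fell by 0.86 and Adam8 by 0.49 on the log2 scale. Adam10 is itself 1 of the 3 that fell.

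Transcripts of reported ADAM10 substrates changed in both directions. Of 28 tested, 12 rose and 3 fell, and on TPM 8 rose and 4 fell. Axl, a receptor kinase for apoptotic cell bridging proteins, rose from 38.2, 66.8 and 37.7 CPM to 169, 226 and 223 CPM (2.12 ± 0.27). Lag3, a checkpoint receptor whose soluble form is released by ADAM10 and ADAM17, rose from 46.5, 38.7 and 36.6 CPM to 93.2, 102.1 and 97.0 CPM (1.26 ± 0.16). Cadm1, an adhesion molecule, and Aplp2, a relative of the amyloid precursor, rose by 1.01 ± 0.11 and 0.82 ± 0.08. Havcr2, which encodes the checkpoint receptor TIM-3, fell from 102, 124 and 126 CPM to 36.7, 47.9 and 42.2 CPM (-1.48 ± 0.13, edgeR adjusted p = 5.7e-07). The files hold RNA only, so shedding of these proteins was not measured.

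Genes of the ESAM-high cDC2 fell and those of the ESAM-low cDC2 rose. Of 9 ESAM-high genes tested, 6 fell and 0 rose (5 fell on TPM), with a median of -2.07. Those that fell were Esam, Clec4a4, Mmp9, Dtx1, Tbx21 and Cd4, whereas Areg, Jaml and Gpr183 did not pass. Dtx1 is also counted among the Notch targets, and limits on Tbx21 and Cd4 are given below. Of 15 ESAM-low genes, 13 rose and 0 fell (8 rose on TPM), with a median of 1.33. The summed level of the ESAM-high list was 646 to 649 CPM in WT against 215 to 247 CPM in KO. Dtx1 averaged 258 CPM of this sum in WT and 8.06 CPM in KO. The summed level of the ESAM-low list was 3044 to 3464 CPM in WT against 11130 to 14510 CPM in KO. Much of the ESAM-low sum came from the lysozyme genes: Lyz2 averaged 1441 CPM in WT and 7719 CPM in KO, and Lyz1 43.8 and 1183 CPM.

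Esam, the adhesion molecule that names the subset, was at 24.3, 32.0 and 33.4 CPM in WT and at 1.54, 1.77 and 1.23 CPM in KO (19.7-fold lower, -4.30 ± 0.29, edgeR adjusted p = 3.51e-08). Clec4a4, which encodes the lectin DCIR2 recognised by the 33D1 antibody, fell from 63.7, 69.2 and 63.3 CPM to 16.3, 11.1 and 10.4 CPM (-2.36 ± 0.15). Mmp9, a gelatinase, fell from 48.4, 44.1 and 52.4 CPM to 2.43, 2.76 and 3.14 CPM (-4.12 ± 0.32). The transcription factor gene Tbx21, which marks an anti-inflammatory cDC2 subset but is also an NK cell gene, had 78.7, 51.6 and 45.9 CPM in WT against 23.1, 8.82 and 9.43 CPM in KO (-2.07 ± 0.42, and -2.68 without KO library 1). Library 1 was the highest for Tbx21 in both genotypes, as it was for the NK sum. Cd4 was low in all 6 libraries, and its small fall (-0.69 ± 0.24) was lost without any 1 of the 6 libraries (-0.81 to -0.51) and was 0.17 on TPM.

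Ccr2, the receptor that guides monocytes and their progeny out of bone marrow, rose from 332, 329 and 322 CPM to 1186, 1374 and 1287 CPM (3.92-fold, 1.97 ± 0.11, edgeR adjusted p = 5.93e-09). Lyz1 (chr10:117287797-117292868) and Lyz2, the lysozyme genes, rose 27.0-fold and 5.36-fold. Lyz1 had 42.4, 49.3 and 39.7 CPM in WT against 876, 1230 and 1444 CPM in KO, but reads of the near-identical pair can be split between them. The same caution holds for the neighbouring lectin genes Mgl2 and Clec10a. Mgl2 rose from 18.4, 21.5 and 13.0 CPM to 304, 236 and 267 CPM (3.93 ± 0.26), and Clec10a from 58.5, 54.6 and 38.9 CPM to 518, 473 and 502 CPM (3.30 ± 0.23). Cx3cr1, the fractalkine receptor, rose from 162, 146 and 149 CPM to 328, 391 and 432 CPM (1.33 ± 0.19). Csf1r, the receptor for M-CSF, rose by less (0.45 ± 0.15), and its call was lost without any 1 of the 6 libraries (0.36 to 0.50) and on TPM (0.18).

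**Figure D3:**
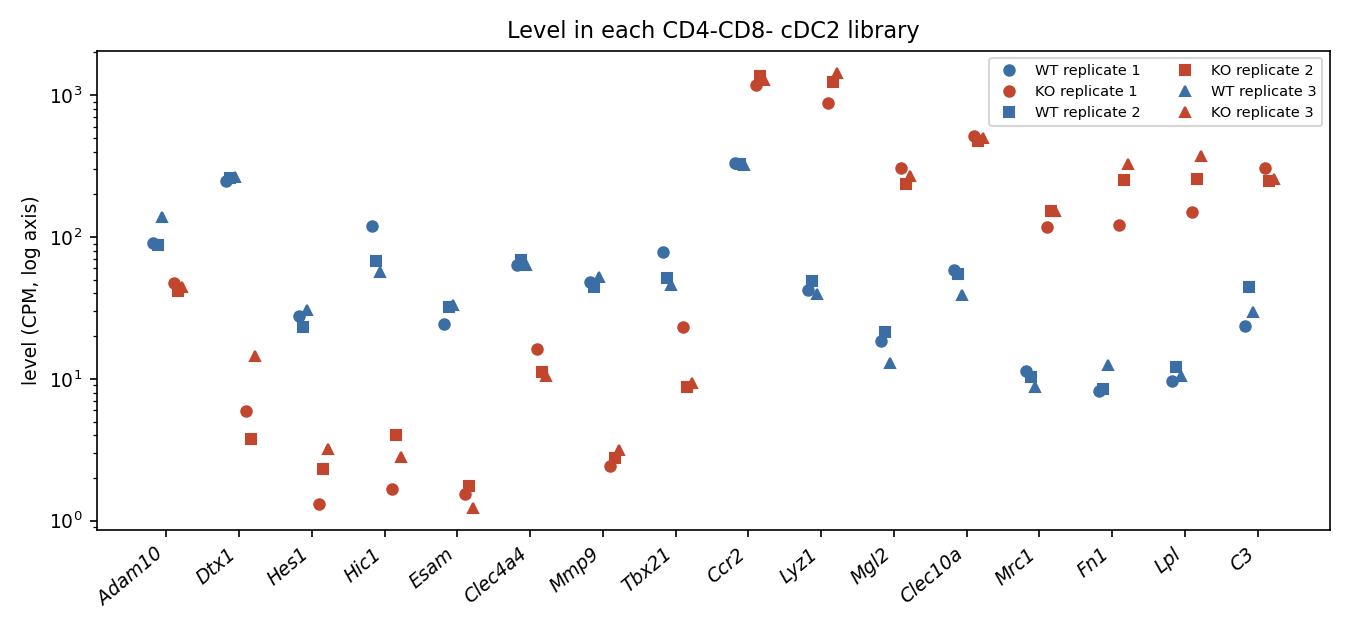
Level (CPM, log axis) of 16 genes in each of the 3 WT (blue) and 3 KO (red) CD4-CD8- cDC2 libraries, with symbols for the replicate numbers. From Adam10 to Tbx21 every KO point lies below every WT point (Esam 24.3 to 33.4 CPM in WT, 1.23 to 1.77 CPM in KO), and from Ccr2 to C3 every KO point lies above (Ccr2 322 to 332 CPM in WT, 1186 to 1374 CPM in KO).

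Among the genes ranked (called, at 5 CPM or more and without overlap), the largest rise was that of Fcrls, an Fc receptor-like gene known from microglia. It was at 0.604, 0 and 0.194 CPM in WT and at 112, 292 and 329 CPM in KO (9.71 ± 0.65, edgeR adjusted p = 3.51e-08), and KO library 1 was the lowest of the KO libraries. With 1 WT library at 0 its fold change is loosely fixed (11.08 without WT library 1). Fn1, the fibronectin gene, rose 23.8-fold from 8.28, 8.55 and 12.6 CPM to 122, 251 and 329 CPM, and Lpl, which encodes lipoprotein lipase, rose 24.0-fold from 9.73, 12.2 and 10.6 CPM to 151, 257 and 372 CPM. Hr, a nuclear corepressor gene, rose 20.8-fold (4.38 ± 0.28). Capg, an actin-capping protein gene, rose from 18.7, 13.2 and 14.2 CPM to 109, 129 and 158 CPM (3.09 ± 0.23). Among the largest falls outside the gate transcripts were Hic1, a transcriptional repressor, from 119, 68.0 and 57.0 CPM to 1.66, 3.99 and 2.84 CPM (-4.88 ± 0.57), and Abcb1a, a drug efflux pump, from 47.1, 50.2 and 48.0 CPM to 2.79, 0.844 and 2.99 CPM (-4.43 ± 0.36). The log2 changes of Ncald, Gpm6b and Frmd5 were -4.36, -4.18 and -4.79. Cdh17, a cadherin, fell from 12.0, 18.9 and 9.13 CPM to at most 0.534 CPM (-5.81 ± 0.64, and -8.16 without KO library 1). Blk, a Src-family kinase of B cells that is also counted among the B cell markers, fell by 3.82 ± 0.31, and is 1 of the 6 that fell on that list.

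Genes that define cDC2 and cDC1 were mixed. Of 17 cDC2 genes, 6 rose and 4 fell (4 and 5 on TPM). The 6 include Mgl2 and Clec10a, also counted among the ESAM-low genes, and Rbpj, also counted among the Notch co-factors. The receptor gene Sirpa averaged 643 ± 96.5 CPM in WT against 770 ± 50.2 CPM in KO (SD, n = 3) and did not pass (0.26 ± 0.17, and -0.18 on TPM). Irf4, a transcription factor of cDC2, had 93.9, 91.0 and 108 CPM in WT against 118, 128 and 135 CPM in KO. Its libraries did not overlap but the difference missed the threshold (0.38 ± 0.16, edgeR adjusted p = 0.101), and it passed in a fit of the 6 libraries alone (edgeR adjusted p = 0.0182). Cd7 fell from 652, 439 and 529 CPM to 206, 170 and 210 CPM (-1.47 ± 0.20), and Epcam, an adhesion molecule, fell by 1.79 ± 0.26. Of 19 cDC1 genes, 10 rose and 2 fell (6 and 3 on TPM, and 6 rose without KO library 2). Xcr1, the chemokine receptor of cDC1, had 39.2, 38.1 and 40.6 CPM in WT against 69.3, 134 and 75.3 CPM in KO (1.24 ± 0.23). Tlr3 and Naaa, both typical of cDC1, rose by 1.03 ± 0.18 and 1.31 ± 0.15. KO library 2 was the highest for all 3 genes. In WT CD8+ cDC1 the mean of Xcr1 was 746 CPM and that of Naaa was 2211 CPM.

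Among genes shared by all cDC, the growth factor receptor gene Flt3 rose by 0.40 ± 0.07 on counts and was not called on TPM (0.09). Zbtb46, a transcription factor of the cDC lineage, averaged 68.5 ± 4.52 CPM in WT against 68.7 ± 2.80 CPM in KO (SD, n = 3), a difference of 0.00 ± 0.07 that turned to -0.31 on TPM. Itgax, which encodes CD11c, averaged 1245 ± 71.5 and 1427 ± 99.9 CPM (0.20 ± 0.10, not passed, and -0.18 on TPM). Of 40 transcription factor genes of dendritic cells, 7 rose and 10 fell (2 and 16 on TPM). Ahr, the aryl hydrocarbon receptor, fell from 76.4, 63.7 and 82.6 CPM to 24.3, 25.3 and 26.5 CPM (-1.55 ± 0.17). Relb, of the non-canonical NF-kB pathway, fell from 354, 395 and 336 CPM to 196, 213 and 173 CPM (-0.90 ± 0.14), and Ikzf1 fell by 0.70 ± 0.08. Spib, an Ets-family factor, rose from 155, 155 and 142 CPM to 296, 353 and 328 CPM (1.11 ± 0.19). Egr2 rose by 1.38 ± 0.23. Zeb2, a repressor needed in cDC2 and monocytes, rose from a mean of 71.4 to 142 CPM (0.99 ± 0.21), a call that TPM did not give (0.62).

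Monocyte markers moved both ways. Of 17 tested, 7 rose and 5 fell (6 and 5 on TPM). F13a1, the coagulation factor XIII subunit of monocytes, rose from 3.44, 3.14 and 2.33 CPM to 28.1, 42.1 and 41.5 CPM (3.64 ± 0.33), and F10, coagulation factor X, rose by 2.92 ± 0.24. Plac8 fell from 535, 641 and 527 CPM to 407, 309 and 314 CPM (-0.73 ± 0.14). Itgal, the LFA-1 alpha chain, fell from 377, 401 and 397 CPM to 173, 201 and 219 CPM (-0.99 ± 0.11). Of 18 red pulp macrophage markers, 6 rose and 2 fell (3 and 2 of 17 on TPM). Mrc1, the mannose receptor, rose from 11.3, 10.2 and 8.81 CPM to 119, 153 and 153 CPM (3.80 ± 0.31), and Cd163, a haemoglobin scavenger receptor, rose by 1.71 ± 0.36. Spic, the transcription factor that defines red pulp macrophages, fell from 8.10, 10.5 and 6.93 CPM to 2.55, 1.84 and 2.99 CPM (-1.78 ± 0.25), while the list's summed level was higher in KO.

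Several genes of MHC class II presentation were higher, by about 2-fold or less. Of 17 tested, 8 rose and 2 fell (7 and 3 on TPM). The summed level of the list was 44970 to 51650 CPM in WT against 79580 to 85650 CPM in KO. Cd74, the invariant chain, had 14640, 17280 and 15030 CPM in WT against 26550, 27390 and 29280 CPM in KO (0.83 ± 0.07, edgeR adjusted p = 2.13e-07). H2-Aa, an alpha chain, rose from 9232, 9419 and 8492 CPM to 15040, 16780 and 16150 CPM (0.82 ± 0.07), and H2-Eb1, a beta chain, from 8876, 9831 and 8223 CPM to 16330, 18130 and 17310 CPM (0.94 ± 0.08). H2-DMa, which helps load peptides, rose by 1.01 ± 0.08. Ctss, the protease that trims the invariant chain, rose from 1255, 1391 and 1207 CPM to 2405, 2393 and 2357 CPM (0.89 ± 0.07).

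The promoters of H2-Aa and H2-Eb1 are shown because these class II genes moved together. Both windows were searched on both strands for the CCAAT box that NF-Y binds, ATTGG, and matches are in capitals. H2-Aa lies on the minus strand at chr17:34287774-34288073 and H2-Eb1 on the plus strand at chr17:34305617-34305916 (RefSeq, GRCm38.p6).
H2-Aa: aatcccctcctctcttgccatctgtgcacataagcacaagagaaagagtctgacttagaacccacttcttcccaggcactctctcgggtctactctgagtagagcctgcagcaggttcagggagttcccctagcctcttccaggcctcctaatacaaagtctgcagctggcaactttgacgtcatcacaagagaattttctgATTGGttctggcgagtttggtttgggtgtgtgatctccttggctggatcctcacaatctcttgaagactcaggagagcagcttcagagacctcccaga
H2-Eb1: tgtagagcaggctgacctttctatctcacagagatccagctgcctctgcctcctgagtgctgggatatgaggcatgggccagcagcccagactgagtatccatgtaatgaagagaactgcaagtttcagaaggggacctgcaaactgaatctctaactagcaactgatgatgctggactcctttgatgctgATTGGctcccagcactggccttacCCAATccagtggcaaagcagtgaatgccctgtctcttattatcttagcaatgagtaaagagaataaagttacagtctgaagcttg
H2-Aa held the box 48 bases before its start, and H2-Eb1 held it 59 bases before its start on the gene's strand and 35 bases before on the other strand. The letters were in 4 of the 6 windows found among the 8 class II genes that rose and in 37.9% of all promoter windows. A strict letter pattern for the class II X box, with no mismatch allowed, was searched in the same windows and matched neither H2-Aa nor H2-Eb1. The pattern was in 1 of the 6 windows and in 0.599% of all. Such a search misses X boxes that differ from the pattern by a letter. It therefore cannot say whether the H2-Aa and H2-Eb1 promoters hold an X box.

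Among MHC class I genes, 6 of 18 rose and 0 fell, with 1 rise and 1 fall on TPM. Calr, a chaperone of class I assembly, rose by 0.61 ± 0.12. Of 15 cathepsins and cystatins, 6 rose and 2 fell (4 and 2 on TPM). Ctsc, which activates serine proteases, rose from 307, 346 and 285 CPM to 640, 608 and 561 CPM (0.95 ± 0.13), and Cst3, a secreted protease inhibitor, rose by 0.77 ± 0.15. Among 20 costimulatory and checkpoint ligands, 5 rose and 3 fell (3 and 6 of 18 on TPM). Beside these counts, 14.6% of all genes rose and 11.4% fell on counts, and 4.64% and 22.8% on TPM. Tnfsf9, the 4-1BB ligand, rose from 41.9, 26.2 and 28.3 CPM to 71.3, 106 and 105 CPM (1.55 ± 0.22). Cd274, which encodes PD-L1, fell from 104, 121 and 130 CPM to 68.8, 49.1 and 39.7 CPM (-1.17 ± 0.20, edgeR adjusted p = 0.000356). Btla, an inhibitory receptor, rose by 0.95 ± 0.13.

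Pattern recognition receptors changed in both directions, with more rises than falls on counts. Of 21 Toll-like receptors and adaptors, 11 rose and 2 fell (5 and 6 on TPM, where the list's median stood 0.51 above that of all genes). Tlr2, a receptor for bacterial lipoproteins, rose from 103, 102 and 84.9 CPM to 190, 291 and 260 CPM (1.35 ± 0.17), and Tlr8 rose by 1.40 ± 0.17. Tlr7, the receptor for single-stranded RNA, fell from 39.2, 53.7 and 55.0 CPM to 21.2, 18.5 and 17.9 CPM (-1.36 ± 0.17, edgeR adjusted p = 2.13e-05). Of 24 C-type lectin receptors, 11 rose and 2 fell (10 and 2 on TPM), 9 of the rises at least 2-fold. Mgl2, Clec10a and Mrc1, described above, are among the 11, and Clec4a4 is among the 2 that fell. Cd302 rose from 13.0, 16.1 and 12.9 CPM to 37.3, 35.6 and 37.1 CPM (1.39 ± 0.11). Of 10 Fc receptors, 6 rose and 1 fell (4 and 1 of 9 on TPM). Fcgr3, the activating IgG receptor III, rose from 20.2, 26.5 and 16.6 CPM to 80.9, 80.8 and 83.8 CPM (1.96 ± 0.22), and Fcgr2b, its inhibitory counterpart, rose from 63.3, 91.8 and 76.3 CPM to 147, 179 and 181 CPM (1.13 ± 0.15).

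**Figure D4:**
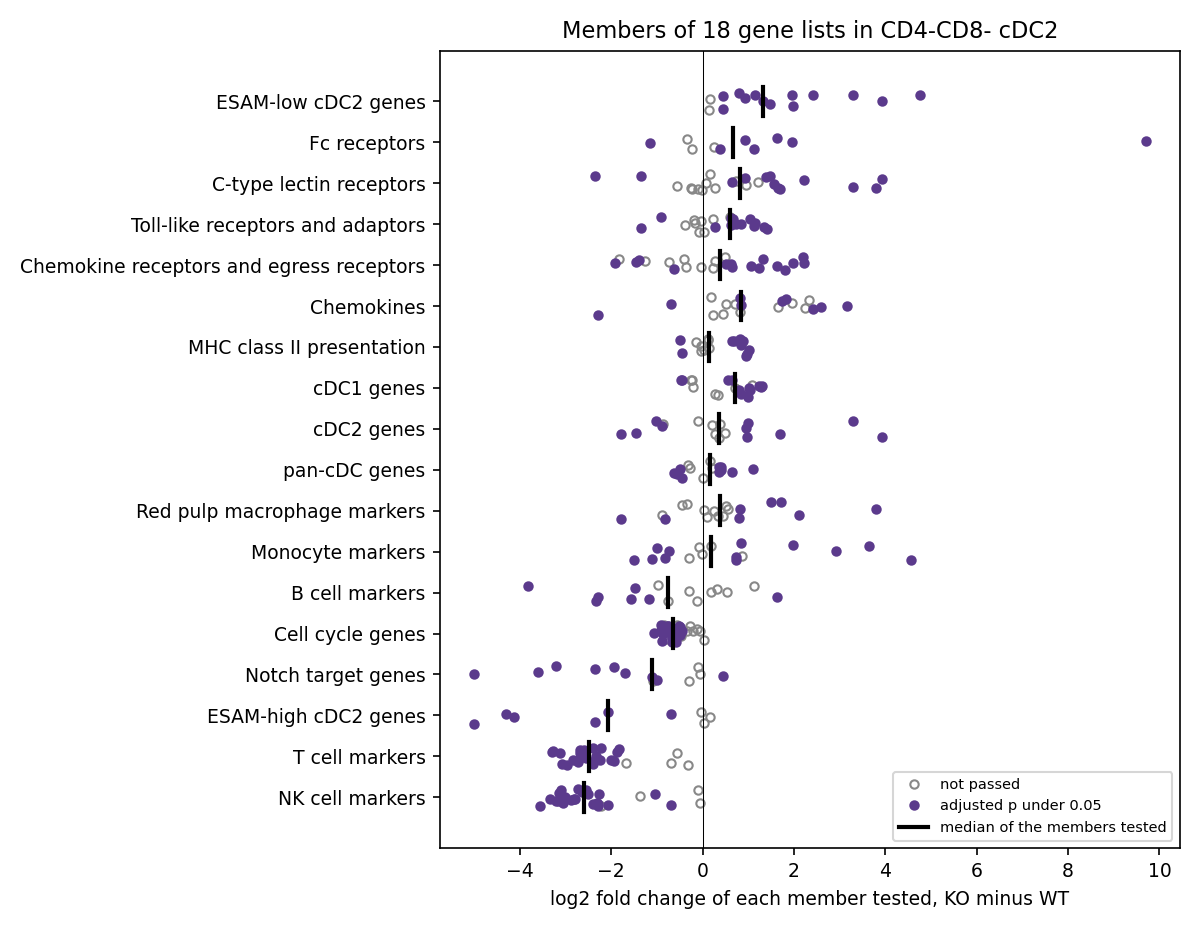
Log2 fold change (KO minus WT) of each tested member of 18 gene lists in CD4-CD8- cDC2; filled points passed an adjusted p of 0.05 and bars mark the medians of the members tested. Medians run from -2.60 for NK cell markers to 1.33 for ESAM-low cDC2 genes, with -2.07 for ESAM-high genes, -1.11 for Notch targets and -0.66 for cell cycle genes.

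Receptors that guide migration changed in both directions. Of 24 chemokine and egress receptors, 11 rose, 4 fell and 9 did not pass (6 and 4 of 19 on TPM). Ltb4r1, the leukotriene B4 receptor, rose from 29.1, 25.9 and 28.4 CPM to 70.5, 103 and 85.8 CPM (1.63 ± 0.15), and Cysltr1, a cysteinyl leukotriene receptor, rose from 9.49, 9.29 and 10.2 CPM to 38.0, 49.7 and 46.6 CPM (2.21 ± 0.21). Ccr6, the receptor for CCL20, fell from 19.5, 20.2 and 16.9 CPM to 6.70, 3.99 and 4.06 CPM (-1.92 ± 0.21). Ccr7, which takes dendritic cells to the T cell zone, was 526, 565 and 402 CPM in WT against 243, 394 and 339 CPM in KO (-0.62 ± 0.22, edgeR adjusted p = 0.0464), a call lost without WT library 1 (-0.60), WT library 2 (-0.54), KO library 1 (-0.44) or KO library 3 (-0.65). Of 19 chemokines, 7 rose and 2 fell (5 and 2 of 16 on TPM). Ccl6 rose from 106, 106 and 105 CPM to 503, 702 and 720 CPM (2.60 ± 0.23), and its neighbour Ccl9 from 156, 148 and 128 CPM to 618, 832 and 841 CPM (2.41 ± 0.23). Xcl1, a gate transcript made by NK cells, fell by 2.29 ± 0.46, and by 3.22 without KO library 1.

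Integrins and other adhesion molecules split: of 33, 9 rose and 12 fell (1 and 12 of 32 on TPM, and 5 rose without WT library 1 or WT library 2). Pecam1, an adhesion molecule of leukocytes and endothelium, fell from 55.5, 66.4 and 59.8 CPM to 24.5, 19.0 and 25.7 CPM (-1.39 ± 0.11). Itgam, which encodes CD11b, rose from 125, 144 and 131 CPM to 278, 233 and 272 CPM (0.97 ± 0.17), a call TPM did not give (0.34). Adgre5, which encodes CD97, fell from 644, 632 and 606 CPM to 299, 338 and 360 CPM (-0.92 ± 0.08). Of 14 semaphorins and plexins, 7 rose and 3 fell (4 and 4 of 12 on TPM). Sema4a, a semaphorin that costimulates T cells, rose from 132, 115 and 115 CPM to 380, 375 and 382 CPM (1.65 ± 0.09, edgeR adjusted p = 5.41e-09). Nrp2, a semaphorin co-receptor, rose by 2.25 ± 0.22.

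Of 25 cytokine genes, 4 rose and 5 fell, and on TPM 0 of 19 rose and 6 fell, beside 14.6% rising and 11.4% falling over all genes on counts and 4.64% and 22.8% on TPM. Ltb, which encodes lymphotoxin beta, fell from 274, 259 and 222 CPM to 142, 125 and 105 CPM (-1.02 ± 0.22), and Tgfb1 fell from 343, 359 and 342 CPM to 196, 215 and 226 CPM (-0.71 ± 0.14). Tnfsf10, the apoptosis ligand TRAIL and here a gate transcript, fell by 1.97 ± 0.22. Of 28 growth factor and cytokine receptors, 11 rose and 5 fell (3 and 8 of 27 on TPM, and 7 rose without WT library 1). Il13ra1, an IL-13 receptor chain, rose from 125, 125 and 138 CPM to 344, 377 and 386 CPM (1.51 ± 0.17), and Il21r fell from 104, 114 and 89.3 CPM to 54.5, 34.2 and 32.6 CPM (-1.33 ± 0.21). Of 37 interferon-stimulated genes, 8 rose and 3 fell (5 and 2 of 35 on TPM), to be read against the same shares of all genes. Ifitm3, an antiviral membrane protein gene, rose from 321, 324 and 301 CPM to 667, 603 and 619 CPM (1.00 ± 0.16).

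Cell cycle genes were lower. Of 38 tested, 25 fell and 0 rose (28 and 0 of 37 on TPM, and 15 fell without KO library 2), and KO libraries lay wholly below WT libraries for 33. The summed level of the list was 1736 to 2010 CPM in WT against 1147 to 1342 CPM in KO, and the median was -0.66. Hmgb2, a chromatin protein of dividing cells, fell from 177, 176 and 198 CPM to 111, 91.6 and 91.1 CPM (-0.91 ± 0.14). Stmn1, a microtubule regulator, fell from 99.4, 113 and 108 CPM to 65.6, 53.9 and 52.1 CPM (-0.90 ± 0.13), and the replication genes Mcm2, Mcm4 and Pcna fell by 0.73, 0.67 and 0.46 on the log2 scale.

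Some metabolic genes rose. Of 28 genes of lipid uptake, storage and the LXR response, 13 rose and 1 fell (6 and 2 of 27 on TPM). Npc2, which moves cholesterol out of lysosomes, rose from 376, 380 and 326 CPM to 846, 840 and 810 CPM (1.21 ± 0.07), Pltp, a phospholipid transfer protein, from 67.4, 101 and 72.2 CPM to 297, 259 and 289 CPM (1.82 ± 0.20), and Plin2, which coats lipid droplets, by 0.98 ± 0.09. Of 21 glycolysis genes, 11 rose and 0 fell (4 and 1 on TPM), among them the transporter Slc2a6 from 50.5, 43.4 and 43.8 CPM to 116, 114 and 131 CPM (1.39 ± 0.10). Of 33 oxidative phosphorylation genes, 2 rose and 0 fell, and on TPM 0 rose and 6 fell. Among all genes 14.6% rose and 11.4% fell on counts, and 4.64% and 22.8% on TPM. KO libraries lay wholly above WT libraries for 12 of the 33 and wholly below for 3, beside 22.8% and 19.4% of all genes. Retinoid and eicosanoid genes changed too, with 10 of 22 rising and 2 falling (8 and 4 of 20 on TPM). Aldh1a2, the retinaldehyde dehydrogenase that makes retinoic acid, rose from 5.20, 9.21 and 7.83 CPM to 37.8, 77.2 and 60.0 CPM (2.98 ± 0.26, edgeR adjusted p = 5.83e-07). Tbxas1, thromboxane synthase, rose from 12.9, 11.2 and 10.7 CPM to 44.2, 47.0 and 47.8 CPM (2.00 ± 0.11), and Ptgir, the prostacyclin receptor, rose by 2.53 ± 0.25.

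Complement and granule genes included further large rises. C3, the central complement component, rose from 23.4, 44.3 and 29.7 CPM to 305, 249 and 256 CPM (3.06 ± 0.23). Of 17 complement genes, 6 rose and 3 fell (3 and 1 of 12 on TPM). Of 17 genes of the NADPH oxidase and granules, 9 rose and 3 fell (4 and 4 on TPM). Lgals3, which encodes galectin-3, rose from 170, 132 and 158 CPM to 298, 339 and 355 CPM (1.11 ± 0.11). Ncf4 and Rac2, parts of the oxidase and its activation, fell by 0.87 ± 0.10 and 0.72 ± 0.09.

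Most NK and T cell transcripts of the gate were lower in the KO. Of 28 NK cell markers tested, 24 fell and 0 rose (24 of 27 fell on TPM), with a median of -2.60, and of 28 T cell markers 24 fell and 0 rose (21 of 24 on TPM), with a median of -2.48. Klrb1c, which encodes NK1.1, had 115, 57.7 and 51.1 CPM in WT against 12.7, 5.37 and 6.74 CPM in KO (-3.15 ± 0.41). Klra8, the Ly49H receptor, and Klre1 fell by 3.56 ± 0.37 and 3.09 ± 0.32, although reads of the Klra family can be split between its near-identical members. Trdc, the constant segment of the T cell receptor delta chain, fell from 123, 54.2 and 116 CPM to 12.2, 7.60 and 21.5 CPM (-2.83 ± 0.39). Cd160 fell from 65.1, 32.1 and 37.4 CPM to 7.59, 2.38 and 4.37 CPM (-3.21 ± 0.46). Gzma, a granzyme, ranged from 21.8 to 175 CPM among the WT libraries, and its fall (-3.35 ± 0.86) was lost without WT library 1 (-2.24). Of 65 tested members of the NK, T and innate lymphoid lists, 18 reached 5 CPM in WT CD4+ or CD8+ libraries. Whether cDC or stray lymphoid cells gave these counts was not tested. Tcf7, which encodes TCF-1, is among the 18. It had 137, 109 and 124 CPM in WT against 23.7, 18.7 and 19.5 CPM in KO (-2.57 ± 0.17), and averaged 70.7 CPM in WT CD4+ cDC2, where it fell as well (-1.48 ± 0.16). Klri2 likewise averaged 134 CPM in WT here and 129.5 CPM in WT CD4+ cDC2, and fell by 1.04 ± 0.13. Not every gate transcript fell: Il1rl1, the IL-33 receptor, rose by 3.67 ± 0.34 and Fn1 and F13a1 rose as given above. When the NK, T and innate lymphoid genes were removed before library sizes were computed, 3407 genes differed.

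The knockout effect was then set against that in the CD4+ cDC2, in 1 model with a test of the difference between the effects. It differed for 503 of 13369 genes (3.76%), more positive in CD4-CD8- cDC2 for 171 and more negative for 332. Of the latter, 91 were gate transcripts. Where these were chosen by a WT level above that of WT CD4+ cDC2, their place among negative differences is partly fixed by the choice. The count fell to 306 without WT CD4+ library 2, 310 without WT CD4-CD8- library 1, 317 without KO CD4+ library 3 and 334 without KO CD4-CD8- library 2, and to 266 on TPM. For Adam10, Dtx1 and Esam the difference did not pass (-0.07 ± 0.31, 1.20 ± 0.74 and 0.66 ± 0.41). Ccr2 rose less here than in CD4+ cDC2, where it went from 74.2 ± 6.19 to 931 ± 159 CPM (SD, n = 3; difference -1.68 ± 0.15, edgeR adjusted p = 1.45e-05). WT Ccr2 was higher here, at 328 ± 5.37 CPM. The rises of Sema4a (-1.68 ± 0.12), Fcgr3 (-1.69 ± 0.31) and Capg (-1.80 ± 0.32) were smaller here too. Their WT means were lower in CD4+ cDC2 (36.0, 10.1 and 6.27 CPM), and their KO means there were 361, 126.5 and 186.5 CPM. Notch1 went from 3.78 ± 0.37 to 12.8 ± 0.544 CPM in CD4+ cDC2, whereas its difference here did not pass (difference -2.11 ± 0.22, edgeR adjusted p = 6.67e-05). On log2(TPM + 1) the differences of Notch1 (-2.40, limma adjusted p = 0.319) and Capg (-1.76, limma adjusted p = 0.0846) were not called. Dok2, a signalling adaptor and here a gate transcript, overlapped between genotypes here at 15.9 ± 7.14 and 20.8 ± 5.81 CPM, but rose from 0.369 ± 0.0584 to 38.3 ± 4.45 CPM in CD4+ cDC2 (-6.29 ± 0.55). Plac8 fell less here (1.69 ± 0.20) and Tcf7 fell more (-1.10 ± 0.23), the latter a gate transcript.

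Against CD8+ cDC1 the effect differed for 1767 genes (13.2%), more positive in CD4-CD8- cDC2 for 1104 and more negative for 663, and for 979 genes on TPM. Several genes that rose here fell there. Cx3cr1 went from 49.3 ± 13.3 to 8.26 ± 2.81 CPM in CD8+ cDC1 (SD, n = 3; difference 3.91 ± 0.29, edgeR adjusted p = 4e-07). Csf1r (3.22 ± 0.23), Lag3 (3.39 ± 0.22), Tmem176a (2.87 ± 0.15) and Hr (6.29 ± 0.46) likewise fell in CD8+ cDC1, by 2.77, 2.13, 1.73 and 1.91 on the log2 scale, and rose here by 0.45, 1.26, 1.14 and 4.38, with the limits on Csf1r given above. The effect on the cell division genes named above differed as well, and none of them passed in CD8+ cDC1. For Stmn1, Mcm4, Mcm2 and Pcna the differences were -1.10 ± 0.18, -0.82 ± 0.16, -0.60 ± 0.16 and -0.56 ± 0.10. Ccnd1 averaged 372 ± 30.1 and 350 ± 40.2 CPM there (difference -0.92 ± 0.16), and Hmgb2 averaged 159 ± 12.8 and 205 ± 35.8 CPM (-1.28 ± 0.19, edgeR adjusted p = 0.000332).

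**Figure D5:**
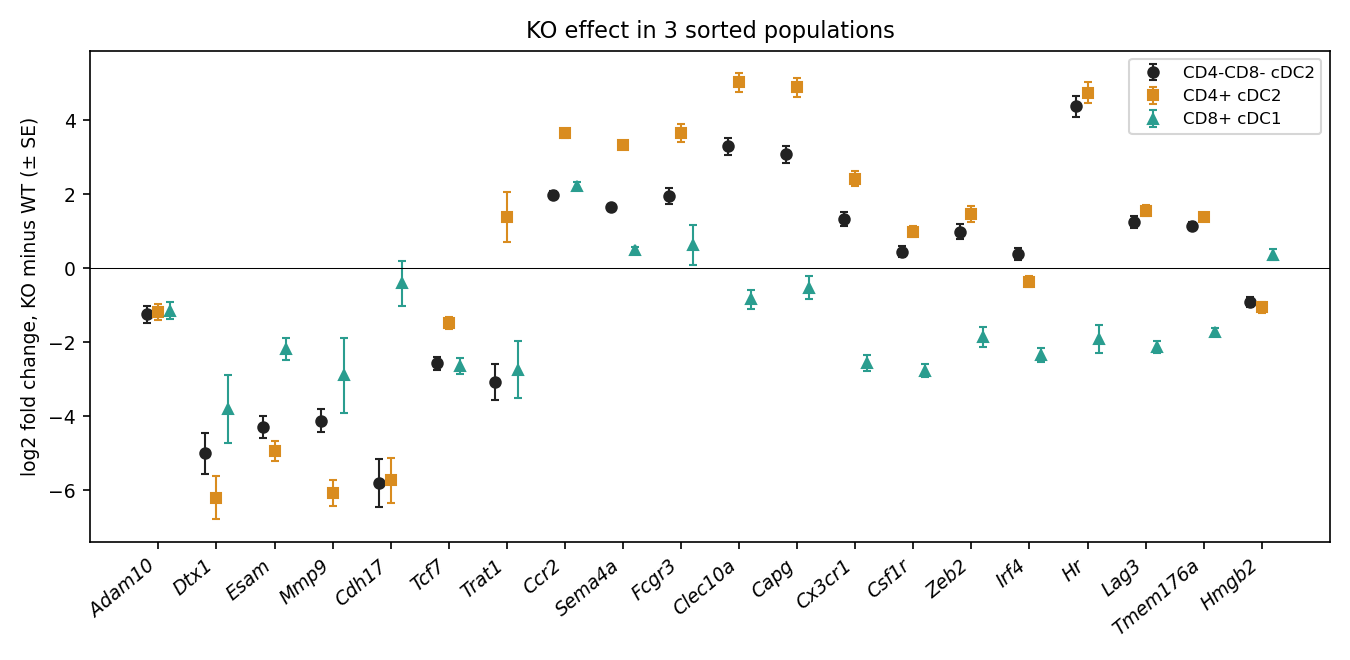
Log2 fold change (KO minus WT, ± SE) of 20 genes in CD4-CD8- cDC2 (circles), CD4+ cDC2 (squares) and CD8+ cDC1 (triangles), from 1 model of 18 libraries. Adam10 lies between -1.25 and -1.15 in all 3 populations, Ccr2 is higher in CD4+ cDC2 (3.65) than in CD4-CD8- cDC2 (1.97), and Cx3cr1, Csf1r and Hr are above 0 in both cDC2 populations and below 0 in CD8+ cDC1.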

How the data were processed

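Poly(A) RNA of 18 sorted dendritic cell libraries was sequenced with single reads, per the labels' protocols. FastQC 0.11.8, Salmon 0.14.1 and the build GRCm38 are named in the submitters' processing notes, and how the tools were set is not given in the sources used here. The authors deposited estimated counts for 117135 transcripts and TPM for 84086 transcripts in the same libraries. Salmon divides reads among similar transcripts, and use of strand is not stated, so near-identical, overlapping and antisense genes are uncertain. Transcripts were summed per gene name, 37 names were filled from GENCODE M21, and 115 transcripts without a name were left out, which took at most 0.16% of a library.

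Gene sums were rounded and tested with edgeR 4.0.16 in R 4.3.3 (TMM, filterByExpr, quasi-likelihood F test, two-sided, Benjamini-Hochberg over all genes, threshold 0.05). All 18 libraries entered 1 model with a mean per group and 12 residual degrees of freedom. Differences between populations were contrasts of the same model. TPM values were tested with limma 3.58.1 on log2(TPM + 1), with genes of at least 1 TPM, and DESeq2 1.42.0 was an alternative. The code was tested on simulated data. A log2 change on TPM understates that of low genes.

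The genes named are Adam10, the 15 largest rises and 15 largest falls without overlap and at 5 CPM or more, 10 gate transcripts that fell, up to 5 called members of each of 55 lists, 5 genes per direction for each contrast between populations, and a fixed set of Notch and dendritic cell genes; Myc was added. Symbols of predicted genes and sequence clones, and immunoglobulin or T cell receptor segments, were left out of the rankings. The members and lists were chosen with earlier results of these data known. Deviations from the group means of same-numbered libraries correlated at 0.03, 0.01 and 0.15 between WT and KO, so the numbers were not taken to pair genotypes. Within a genotype, CD4-CD8- libraries correlated with CD8+ libraries of the same number at 0.13 to 0.32, and with CD4+ libraries at 0.20, 0.19 and 0.31 in WT and 0.35, 0.07 and 0.15 in KO. These values were not set beside those of differently numbered libraries, so they cannot say whether the numbers mark pairs. The contrasts printed come from the model without a block, and a block within genotype was run as an alternative for both contrasts between populations. Alternatives were other scaling, no filter, TPM with 2 pseudocounts, removal of NK, T and innate lymphoid genes, a replicate block, the 6 libraries alone and leaving out each library.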

Additional observations from a re-analysis of the deposited data

Results flagged for a closer look

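The results here are genes whose knockout effect in CD4-CD8- cDC2 differed from that in another population by edgeR's quasi-likelihood test of the difference. Values are differences of log2 fold changes, CD4-CD8- cDC2 minus the other population, each from 3 libraries per group.

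Against CD4+ cDC2, the effect was more positive for Sema4f (3.04 ± 0.33, edgeR adjusted p = 8.09e-05), Notch4 (2.84 ± 0.39), Serpinb2 (2.70 ± 0.49), Gpr4 (2.54 ± 0.36), Mmp9 (1.96 ± 0.48, edgeR adjusted p = 0.0308) and Plac8 (1.69 ± 0.20). It was more negative for Dok2 (-6.29 ± 0.55, edgeR adjusted p = 1.45e-05), Igf2r (-5.67 ± 0.33), Klrb1a (-5.15 ± 0.52), Alox5 (-5.14 ± 0.99) and Skap1 (-5.01 ± 1.06). Dok2, Klrb1a, Alox5, Skap1 and Tcf7 are gate transcripts, and the NK and T cell sums were lower in KO CD4-CD8- libraries (579 to 770 and 63.1 to 143.5 CPM) than in WT (1398 to 2460 and 468 to 870 CPM). Their part in these differences was not tested. Smaller differences of this sign were those of Notch1 (-2.11 ± 0.22), Capg (-1.80 ± 0.32), Fcgr3 (-1.69 ± 0.31), Ccr2 (-1.68 ± 0.15), Sema4a (-1.68 ± 0.12) and Tcf7 (-1.10 ± 0.23). The Mmp9 call was lost without most single libraries (1.63 without KO CD4+ library 1), and that of Skap1 without KO CD4+ library 3 (-4.22). On log2(TPM + 1), Igf2r (-0.45), Sema4f (0.38), Serpinb2 (0.67), Mmp9 (0.86), Notch4 (2.75), Notch1 (-2.40), Capg (-1.76) and Alox5 (0.08) were not called, nor was Fcgr3 (-1.78) with a pseudocount of 0.1.

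Against CD8+ cDC1, the effect was more positive for Hr (6.29 ± 0.46, edgeR adjusted p = 4e-07), Galnt9 (6.21 ± 1.38), Cldn10 (5.04 ± 0.68), Cyp7b1 (4.90 ± 0.95), Ptgir (4.82 ± 0.43), Cx3cr1 (3.91 ± 0.29), Lag3 (3.39 ± 0.22), Csf1r (3.22 ± 0.23) and Tmem176a (2.87 ± 0.15). It was more negative for Hist1h2ap (-6.96 ± 2.15, edgeR adjusted p = 0.0422), Cdh17 (-5.41 ± 0.94), Podnl1 (-4.80 ± 1.5, edgeR adjusted p = 0.044), Frmd5 (-4.34 ± 0.35), Btbd11 (-3.57 ± 0.81), Hmgb2 (-1.28 ± 0.19) and Ccnd1 (-0.92 ± 0.16). Podnl1 and Btbd11 are gate transcripts. Podnl1 and Hist1h2ap lost their calls without most single libraries (-3.54 for Podnl1 without KO CD8+ library 2, -6.38 for Hist1h2ap without WT CD8+ library 1), and the call of Podnl1 was also lost with the replicate block within genotype (-4.90). Hist1h2ap was not called by DESeq2 (-6.97) or on log2(TPM + 1) (-6.13). Galnt9 lost its call without WT CD8+ library 2 (5.34).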

How the results depend on the processing

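The fall of Adam10 passed under every alternative run, at -1.45 to -1.03. The count of genes that differed between KO and WT was 3093 to 3598 under other scaling, filters, DESeq2, TPM or removal of lymphoid genes, and 2671 to 3088 without single libraries. Similar counts did not mean the same genes on TPM. Of 3312 genes called on log2(TPM + 1), 1678 were among the 3473 called on counts, and of 3149 called with a pseudocount of 0.1, 1625 were. On TPM the split changed: 560 rose and 2752 fell with a pseudocount of 1, and 518 rose and 2631 fell with 0.1. The cause was not tested. The difference from CD4+ cDC2 covered 266 genes (30 more positive) on log2(TPM + 1) and 163 (21 more positive, 142 more negative) with 0.1. Without single libraries it covered 306 to 548 genes, 87 to 216 more positive and 211 to 340 more negative. The difference from CD8+ cDC1 covered 979 genes (430 more positive) and 803 (415 more positive, 388 more negative) on the same scales.

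With the replicate block, 3806 genes differed between KO and WT, 587 in the difference from CD4+ cDC2 and 1992 in that from CD8+ cDC1. A replicate block within genotype, chosen after seeing the data, gave 853 genes against CD4+ cDC2 (345 more positive, 508 more negative) and 2273 against CD8+ cDC1. With the first block Ccr7 (-0.61) and the difference of Hist1h2ap from CD8+ cDC1 (-6.56) lost their calls and Irf4 gained one (0.39). With the block within genotype the difference of Podnl1 from CD8+ cDC1 (-4.90) lost its call, and the other 32 differences tested kept theirs.

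Of 169 results for single genes, 137 kept their call and direction under every alternative. Direction turned on TPM for Aph1a (-0.08 with either pseudocount), Notch4 (-0.30 and -0.44), Cd4 (0.17 and 0.22), Sirpa and Itgax (-0.18 with either), and for the difference of Alox5 between cDC2 populations (0.08). Zbtb46, at 0.00, went to -0.02 with DESeq2 or its size factors or with the 6 libraries alone, -0.03 without a filter, -0.31 and -0.34 on TPM, and -0.06 to 0.04 without single libraries. With 3 libraries a group, small changes of genes under a few CPM could not be resolved.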
